A study of Mus musculus with 6 samples.

Results

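Guanylate-binding proteins (GBPs) were examined in messenger RNA of splenic monocytes from mice gavaged with water (Con, n = 3) or with vancomycin (Van, n = 3). The 10 genes Gbp2, Gbp3, Gbp4, Gbp5, Gbp6, Gbp7, Gbp8, Gbp9, Gbp10 and Gbp11 were taken by their symbols from the deposited count and FPKM tables, which hold 45802 gene symbols. All mice were female C57BL/6 animals, and the study's methods give an age of 8 to 10 weeks. Van mice received 1 mg of vancomycin by oral gavage, 2 times a day (2 mg per day), for 6 days, and were then left without antibiotic for 6 to 8 days by the labels, which the study's text gives as 8 days for these groups. Con mice received water on the same schedule. Vancomycin is a glycopeptide antibiotic that acts mainly on Gram-positive bacteria and is poorly absorbed from the gut, and the comparison asks what differs in monocytes of the spleen after this treatment of the gut bacteria. The study reported a lower proportion of Bacteroidota in feces after such gavage and rest. The monocytes were obtained as CD11b+ cells by magnetic negative selection, and 1 polyA library was sequenced per sample. The study combined spleens for its cell cultures, and whether it did so for these libraries is not given in the sources used here. The study's text describes the RNA samples as 3 mice in each group, and n is given as mice on that basis.

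GBPs are large GTPases of the dynamin superfamily whose genes are switched on strongly by interferon gamma and also by type I interferons, through transcription factors such as IRF1. In macrophages and monocytes they gather on the vacuoles of intracellular parasites and bacteria and on the lipopolysaccharide of bacteria in the cytosol. There they help to break the vacuole and to start caspase-1 and caspase-11 inflammasomes, together with a related family, the immunity-related GTPases.

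The 10 genes lie in 2 clusters in the mouse genome, given here on GRCm38 with the GENCODE M21 annotation. On chromosome 3, all on the plus strand and within 144 kb, were Gbp5 (chr3:142493978-142522344), Gbp7 (chr3:142530342-142550149), Gbp3 (chr3:142560026-142573209) and Gbp2 (chr3:142620602-142638008). On chromosome 5, all on the minus strand and within 332.3 kb, were Gbp8 (chr5:105014150-105139540), Gbp9 (chr5:105077630-105139539), Gbp4 (chr5:105115767-105139586), Gbp10 (chr5:105215699-105239533), Gbp6 (chr5:105270702-105293698) and Gbp11 (chr5:105323042-105346472). M21 lists 9 of them as protein coding and Gbp11 as a polymorphic pseudogene. Gbp4, Gbp8 and Gbp9 overlap one another and share 60 or 61 exonic bases on the same strand, so that reads from these bases could be assigned to any of them. Gbp6 and Gbp10 share a stretch of 3131 transcript bases at 99.17% identity, and Gbp8 shares 702 bases at 95.87% identity with Gbp11 and 620 bases at 95.16% with Gbp6 and with Gbp10. Gbp4 shares 345 bases at 95.07% identity with Gbp10, and 278 bases at 95.68% with Gbp9. Values of the 6 chromosome 5 genes are therefore uncertain to the extent that the authors' counting split such reads. Gbp2, Gbp3 and Gbp5 had no stretch of at least 200 bases at 95% identity with another gene.

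Promoters of the 4 chromosome 3 genes are shown because interferon, which raises GBP genes, acts on such windows through short motifs, and because the RefSeq table used here held promoters for these 4 of the 10 genes. The 250 bases before the RefSeq start on GRCm38.p6, plus strand, were chr3:142496684-142496933 for Gbp5, chr3:142530086-142530335 for Gbp7, chr3:142559794-142560043 for Gbp3 and chr3:142620413-142620662 for Gbp2. RefSeq starts can differ from those of M21. Capitals mark matches to the core of the interferon-stimulated response element, which is GAAA, any 2 bases and GAAA again (TTTC, any 2 bases and TTTC on the other strand), and to TTCNNNGAA, the palindrome of the gamma-activated site.
Gbp5: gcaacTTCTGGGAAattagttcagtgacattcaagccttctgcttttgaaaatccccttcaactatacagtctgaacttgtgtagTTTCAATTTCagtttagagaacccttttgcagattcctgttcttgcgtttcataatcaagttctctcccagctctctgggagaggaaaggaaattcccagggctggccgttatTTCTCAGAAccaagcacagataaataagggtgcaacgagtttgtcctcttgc
Gbp7: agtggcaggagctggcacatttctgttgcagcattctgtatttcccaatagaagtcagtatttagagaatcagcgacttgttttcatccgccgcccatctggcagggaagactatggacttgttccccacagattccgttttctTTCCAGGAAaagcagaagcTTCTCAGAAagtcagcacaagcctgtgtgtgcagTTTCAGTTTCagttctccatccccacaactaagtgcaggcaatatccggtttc
Gbp3: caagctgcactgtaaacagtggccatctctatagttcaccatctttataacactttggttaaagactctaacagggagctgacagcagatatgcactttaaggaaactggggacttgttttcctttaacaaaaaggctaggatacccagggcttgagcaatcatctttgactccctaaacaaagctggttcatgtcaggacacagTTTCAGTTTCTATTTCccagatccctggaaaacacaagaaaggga
Gbp2: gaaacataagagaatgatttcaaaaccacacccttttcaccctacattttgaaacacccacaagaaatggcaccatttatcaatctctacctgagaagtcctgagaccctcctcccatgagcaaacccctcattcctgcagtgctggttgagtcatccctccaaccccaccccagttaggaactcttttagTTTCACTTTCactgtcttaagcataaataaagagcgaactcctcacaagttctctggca
All 4 windows held the first motif, on the minus strand. In Gbp7, Gbp3 and Gbp2 the match began 53, 45 and 59 bases before the start, respectively, and in Gbp5 165 bases before it. Gbp3 held 2 such matches that overlap each other, while a second RefSeq start of Gbp3 (chr3:142560106-142560355) had none. Gbp5 and Gbp7 also held 2 matches each to TTCNNNGAA, and Gbp3 and Gbp2 held none. Over 32851 mouse promoters in RefSeq, 2.98% held the first motif on either strand in the 250 upstream bases and 7.02% held TTCNNNGAA. These matches describe letters in a window and are not measured binding.

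Expression is given as CPM, counts scaled to the size of the library by the TMM method, which compare 1 gene between mice, and as FPKM, which are scaled to transcript length and compare genes with each other. The libraries held 43.38M to 61.83M estimated counts, or 16.27M to 23.19M fragments on the scale described under the processing, and the GBP genes took between 0.042% and 0.079% of a library. Classical and nonclassical monocyte markers were high in every library, with summed levels of 15221 to 18974 CPM and 9711 to 13379 CPM, and Ly6g, which marks neutrophils, was at 0 in all 6. Con replicate 1 stood apart for the GBPs. It was the highest of the 6 libraries for 9 of the 10 genes, at 1.16 to 2.15 times the mean of the other Con mice, while this ratio had a median of 1 over all genes tested. Values without this mouse are therefore given beside the results.

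On the FPKM scale, Gbp2 was the most abundant GBP in Con monocytes at 56.7 ± 23.8 (SD, n = 3), above 93% of the genes tested, which places it among the abundant messages of these cells. Gbp3 followed at 31.4 ± 2.58 FPKM, Gbp9 at 26.6 ± 2.54 and Gbp5 at 18.6 ± 7.93. Gbp8 stood at 11.1 ± 2.98 FPKM, Gbp7 at 8.56 ± 1.77, Gbp4 at 4.06 ± 1.88 and Gbp6 at 2.98 ± 0.877. The value of Gbp6 is that of 1 of its 2 identifiers, and the other had means of 1.22 FPKM in Con and 0.763 FPKM in Van, so its place beside Gbp4 is uncertain. The least abundant were Gbp10 at 1.42 ± 0.792 FPKM and Gbp11 at 0.246 ± 0.115. The order by mean level was the same in Van. Among neighbours in this order, the Con mice did not overlap between Gbp2 and Gbp3, between Gbp7 and Gbp4, or between Gbp10 and Gbp11, and the other neighbours overlapped. The chromosome 3 cluster thus held 1 very abundant and 3 moderately abundant genes, and the chromosome 5 cluster ran from Gbp9 down to Gbp11, which was barely detected.

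In the Van group, 2 of the 10 genes, Gbp3 on chromosome 3 and Gbp9 on chromosome 5, were lower than in Con at the threshold used, an adjusted p of no more than 0.05 by edgeR's quasi-likelihood test. Over all 16138 genes tested, 0.917% passed this threshold in the lower direction and 1.08% in the higher one (2% in all). DESeq2's Wald test called 4 of the 9 GBPs to which it gave an adjusted p (all but Gbp11), all 4 lower in Van, against 7.36% of the genes it tested (3.61% lower and 3.75% higher). Of the other 8 genes, 7 had a negative fold change that did not pass, and Gbp8 had a positive one. The groups did not overlap for 3 genes, Gbp3, Gbp7 and Gbp9, each with all Van mice below all Con mice, as was the case for 11% of all genes tested. An unadjusted p under 0.05 was obtained for 6 genes, all with lower means in Van, against 16.5% of all genes tested (8.14% lower and 8.37% higher). This held for 3 of the 10 without Con replicate 1. In bulk RNA, fewer cells that express a gene and less RNA of it per cell cannot be told apart.

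**Figure D1:**
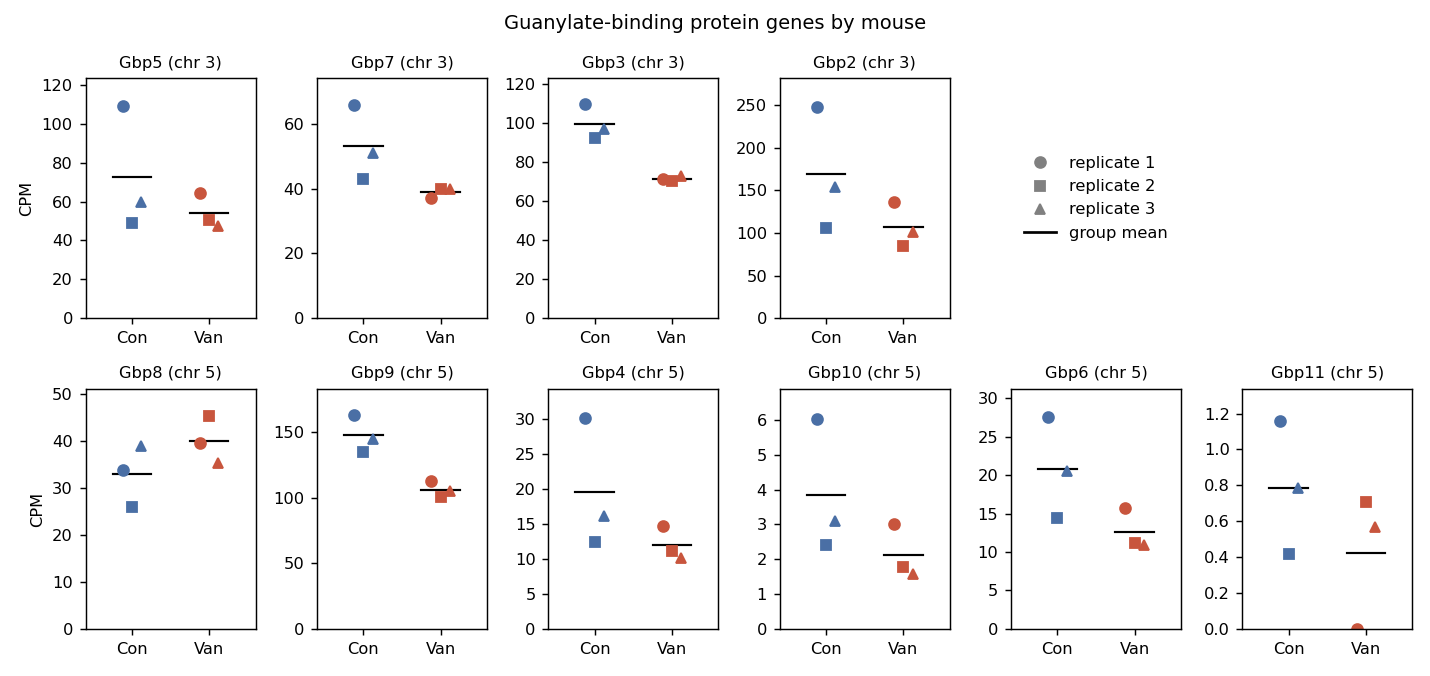
Expression of each GBP gene in CPM (vertical axis, from 0) in the 3 Con and 3 Van libraries, with 1 point per library and a bar at the group mean; the upper panels hold the chromosome 3 genes and the lower panels the chromosome 5 genes. Gbp3 and Gbp9 were separated between the groups by narrow spreads, Con replicate 1 lay far above the other Con mice for Gbp2, Gbp5, Gbp4 and Gbp10, and Gbp8 had the higher mean in Van.

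Gbp2 encodes a prenylated GBP that binds vacuoles and bacteria early and takes part in the AIM2 and caspase-11 pathways. It stood at 248, 106 and 155 CPM in the Con mice and at 136, 85.0 and 101 CPM in the Van mice. Con replicate 1 was the highest and Con replicate 2 lay within the Van range, so the groups overlapped. The log2 fold change of Van against Con was -0.66 (SE 0.29) and the adjusted p was 0.299 by edgeR's quasi-likelihood test. Without Con replicate 1 the log2 fold change was -0.28 (adjusted p = 0.624).

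Gbp5, also prenylated and known for its part in inflammasome assembly, had 109, 49.0 and 60.1 CPM in Con and 64.4, 50.5 and 47.7 CPM in Van. Apart from Con replicate 1, the Con mice lay among the Van mice. Its log2 ratio of Van to Con, -0.42 (SE 0.27, adjusted p = 0.488 by edgeR), was -0.01 without Con replicate 1 (adjusted p = 0.988), so the lower mean in Van rested on that mouse.

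Gbp3 had 109.9, 92.3 and 97.1 CPM in Con and 71.6, 70.5 and 72.9 CPM in Van. The Van mice differed from each other by less than 3 CPM and the lowest Con mouse was well above them. Mean expression fell by 28.2%, from 99.8 ± 9.11 to 71.6 ± 1.22 CPM (SD, n = 3), with a log2 fold change of -0.48 (SE 0.07) and an adjusted p of 0.0230 by edgeR. Gbp3 stood 99th among all genes when ordered by p-value. In FPKM the groups did not overlap either, with 31.4 ± 2.58 in Con and 22.6 ± 0.311 in Van, but limma on log2 FPKM did not call the gene (adjusted p = 0.0739 to 0.124), nor did edgeR with the replicate block (adjusted p = 0.0505). Without Con replicate 1, Gbp3 was still lower in Van, by -0.40 on the log2 scale (adjusted p = 0.0433), but the call was lost without Con replicate 3 or any 1 of the Van mice (adjusted p = 0.0623 to 0.121).

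Gbp7, a GBP known to help assemble the phagocyte NADPH oxidase, had 65.8, 42.9 and 50.9 CPM in Con and 37.0, 39.9 and 39.8 CPM in Van. All Van mice were below all Con mice, although the highest Van mouse and the lowest Con mouse were close. The log2 fold change was -0.45 (SE 0.14) and did not pass by edgeR (unadjusted p = 0.0103, adjusted p = 0.150). It was -0.27 without Con replicate 1 (adjusted p = 0.223). A processed pseudogene, Gm43802, shares 637 of its exonic bases, so its reads could be divided.

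The neighbour Gbp2b, which lies between Gbp3 and Gbp2 on chromosome 3, was barely expressed, with a mean of 0.740 FPKM in Con and 0.343 FPKM in Van. Its 3 Con mice had 2.95, 1.93 and 2.61 CPM and its 3 Van mice 1.21, 1.22 and 1.05 CPM. The groups did not overlap, and the log2 fold change of -1.11 (SE 0.24) had an adjusted p of 0.0573 by edgeR.

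On chromosome 5, Gbp9 had 163, 135 and 145 CPM in Con and 113, 101 and 105 CPM in Van. The highest Van mouse was below the lowest Con mouse. Mean expression fell by 28.0%, from 148 ± 14.4 to 106 ± 5.97 CPM (SD, n = 3), with a log2 fold change of -0.47 (SE 0.08) and an adjusted p of 0.0309 by edgeR. Its change was close to that of Gbp3 in size, although the genes lie on different chromosomes and share no near-identical stretch. Leaving out any 1 mouse ended the call (adjusted p = 0.0539 to 0.137), with the log2 fold change between -0.54 and -0.40, and so did limma on log2 FPKM (adjusted p = 0.118 to 0.172). For Gbp3, Gbp7 and Gbp9 the exact two-sided permutation test of CPM gave p = 0.1, the smallest that 3 mice against 3 allow.

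Gbp8 had 33.8, 25.9 and 38.9 CPM in Con and 39.6, 45.4 and 35.2 CPM in Van. Its mean was higher in Van, but Van replicate 3 lay below Con replicate 3 and the groups overlapped. The log2 fold change of 0.29 (SE 0.15) did not pass, with an adjusted p of 0.381 by edgeR. It stayed between 0.14 and 0.43 when each mouse was left out in turn. Whether Gbp8 differed in its change from the other GBPs was not tested.

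Gbp4 stood at 30.2, 12.5 and 16.2 CPM in Con and at 14.7, 11.1 and 10.2 CPM in Van, with a log2 fold change of -0.71 (SE 0.30, adjusted p = 0.284 by edgeR). Con replicate 1 was about the sum of the other Con mice and the groups overlapped. Gbp6 had 27.5, 14.5 and 20.6 CPM in Con and 15.8, 11.2 and 10.9 CPM in Van, with a log2 fold change of -0.72 (SE 0.23, adjusted p = 0.166). Here the highest Van mouse was above only the lowest Con mouse. In the tables Gbp6 stands on 2 identifiers with the same counts, the second of which M21 names Gm43302. This gene overlaps both Gbp6 and Gbp10, with 1726 and 1792 shared exonic bases.

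Gbp10 had 6.04, 2.40 and 3.10 CPM in Con and 3.02, 1.76 and 1.58 CPM in Van. The estimate of -0.85 on the log2 scale (SE 0.38) did not pass (adjusted p = 0.312 by edgeR) and the groups overlapped. Gbp11 had estimated counts of 60, 25 and 34 in Con and of 0, 36 and 32 in Van, and its log2 fold change of -0.90 (SE 0.95, adjusted p = 0.715) has a standard error larger than itself. Without Con replicate 1, the log2 fold changes of Gbp4, Gbp6, Gbp10 and Gbp11 were -0.26, -0.47, -0.37 and -0.51. The estimate of Gbp11 was -0.30 without Van replicate 1, its library at 0, and -1.47 without Van replicate 2. Gbp10 and Gbp11, the least abundant of the GBPs, thus had the widest errors.

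**Figure D2:**
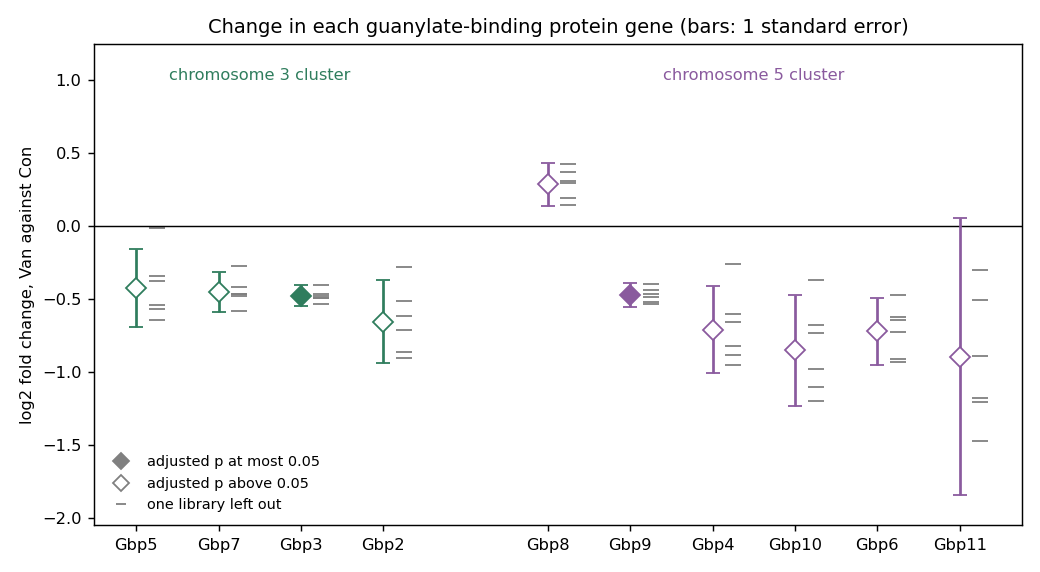
Log2 fold change of Van against Con for each GBP gene (diamonds, with bars of 1 standard error from the edgeR fit), with grey dashes for the fits that leave out 1 library each. Gbp3 and Gbp9, filled, had the smallest errors and passed the threshold, and the dash of Gbp5 at -0.01 is the fit without Con replicate 1.

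Compared as clusters, the median log2 fold change of the 4 chromosome 3 genes was -0.46 over a range of -0.66 to -0.42, and all 4 were negative. The 6 chromosome 5 genes had a median of -0.72 and a range of -0.90 to 0.29, and 5 were negative. Over all genes tested the median was -0.0014 and 50.4% were negative. Each cluster held 1 gene that passed the threshold. Without Con replicate 1 the medians were -0.27 on chromosome 3 and -0.38 on chromosome 5, closer to 0 than with all mice. With limma on log2(FPKM + 1) values they were -0.43 and -0.41, so that the order of the clusters turned. On log2(FPKM + 0.1) values limma gave -0.46 and -0.61, and the order did not turn. The difference between the clusters was not tested, since the members of a cluster share their mice and are not replicates.

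In transcript abundance, the summed FPKM of the chromosome 3 genes was 154, 83.9 and 107 in the Con mice and 89.4, 71.9 and 75.7 in the Van mice. Con replicate 2 lay below Van replicate 1, so the groups overlapped. Gbp2 made up between 40.8% and 53.2% of this sum in every mouse. The summed FPKM of the chromosome 5 genes was 52.2, 38.1 and 48.9 in Con and 40.2, 40.4 and 35.5 in Van, which also overlapped. Without Gbp8 the chromosome 5 sums were 41.8, 29.6 and 34.5 in Con and 27.2, 24.9 and 24.0 in Van, with no overlap. Gbp8 was the 1 chromosome 5 gene with a positive fold change, so leaving it out favours this separation. Gbp8 accounted for 20.1%, 22.3% and 29.4% of the chromosome 5 FPKM in Con and for 32.5%, 38.2% and 32.3% in Van. The ratio of Gbp8 to Gbp9 in FPKM was 0.359, 0.353 and 0.541 in Con and 0.622, 0.774 and 0.584 in Van. The share of Gbp8 was thus above every Con mouse in every Van mouse, a comparison chosen after these values were seen and given without a test.

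**Figure D3:**
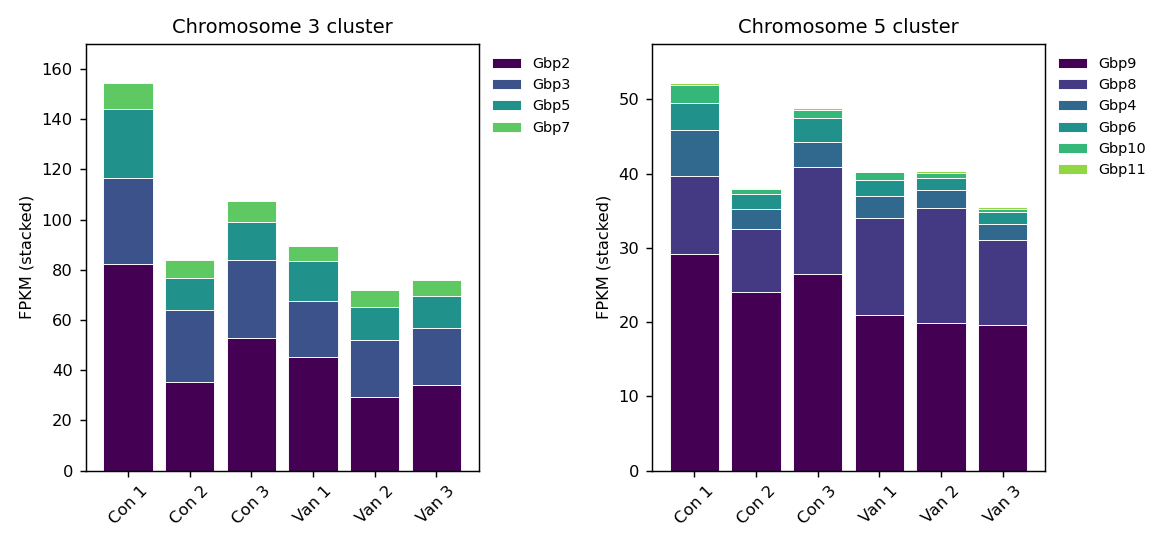
Summed FPKM of the GBP genes in each of the 6 libraries, stacked by gene from 0, for the chromosome 3 cluster (left) and the chromosome 5 cluster (right). Con replicate 1 reached 154 FPKM on chromosome 3, mostly through Gbp2, and on chromosome 5 the band of Gbp9 was narrower in every Van library, while that of Gbp8 ranged from 8.50 to 14.3 FPKM in Con and from 11.5 to 15.4 FPKM in Van.

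In 8 of the 10 genes the levels ran together from mouse to mouse. Among the 8 genes other than Gbp8 and Gbp11, the 28 pairwise Pearson correlations of log2 CPM over the 6 libraries were between 0.656 and 0.984, with a median of 0.887, and 0.676 to 0.998 once group means were subtracted. Gbp8 correlated with the other 9 at -0.50 to -0.00031 over both groups, but at 0.227 to 0.498 once group means were subtracted. Gbp11, with few counts, correlated at 0.072 to 0.621 with the other 8, and at -0.34 to 0.451 once group means were subtracted. These are descriptions over 6 libraries that share the 2 groups and the high Con replicate 1, and pairs with overlapping or near-identical exons also share reads. The genes whose pattern was most like the mean of the GBPs were Slc4a7, Gm2396, Aplnr, Phlpp2 and Akap9, with correlations of 0.996, 0.993, 0.985, 0.983 and 0.983 over the 6 libraries. None of these 5 passed the threshold between the groups (adjusted p = 0.130 to 0.545 by edgeR).

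The receptor and signalling chain that switches GBP genes on was examined as a list of 18 genes. Ifng, which encodes interferon gamma, was at 0 counts in all 6 libraries, and 17 genes were tested. None passed the threshold by edgeR, where 5 of the 17 had an unadjusted p under 0.05, all with lower means in Van, against 8.14% of all genes in that direction (2 of the 17 without Van replicate 2 and 2 without Van replicate 3), and the median log2 fold change was -0.0074. The receptor chains Ifngr1 and Ifngr2 had log2 fold changes of 0.09 (adjusted p = 0.423) and 0.05 (adjusted p = 0.820). Irf1, which binds GBP promoters, had 529, 286 and 308 CPM in Con and 340, 275 and 273 CPM in Van, with a log2 fold change of -0.34 (SE 0.21, adjusted p = 0.496). Without Con replicate 1, at 1.78 times the mean of the other Con mice, it was -0.0054 (adjusted p = 0.990). The smallest p of the list was that of Stat2, a transcription factor of the type I interferon response, at -0.27 (SE 0.07, adjusted p = 0.104).

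Other genes that interferon gamma is known to induce were counted in a list of 25, of which Nos2 was at 0 in all libraries and 24 were tested. A negative fold change was found for 23 of the 24, with a median of -0.26, where 50.4% of all genes were negative. An unadjusted p under 0.05 was found for 8, all with lower means in Van (8.14% of all genes), and 1 passed the threshold (0.917% of all genes). This was Fcgr1, the high-affinity IgG receptor, with 74.3, 78.1 and 74.3 CPM in the Con mice and 59.0, 62.1 and 60.2 CPM in the Van mice. It fell by 0.32 on the log2 scale (SE 0.06, adjusted p = 0.0328 by edgeR). Ciita, the master regulator of MHC class II genes, had a log2 fold change of -0.35 (SE 0.18, adjusted p = 0.380). Con replicate 1 stood apart in this list too, with a sum of 13761 CPM against 10790 and 11875 CPM in the other Con mice. Without it, 2 of the 24 had an unadjusted p under 0.05, 21 were negative, the median was -0.14, the estimate of Ciita was -0.11 and Fcgr1 no longer passed (adjusted p = 0.0680). The count at an unadjusted p under 0.05 was 17 when Con replicate 2 was left out and 14 when Van replicate 1 was, and it was 3 when Van replicate 3 was left out and 1 when Van replicate 2 was.

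Targets of type I interferon, which also raises GBP genes, were measured as 28 genes. Of these, 4 passed the threshold and all 4 were lower in Van, against 0.917% of all genes. A negative fold change was found for 26 of the 28, against 50.4% of all genes, and the median was -0.22. Ifit2, which binds viral RNA, had 60.9, 52.0 and 62.4 CPM in Con and 39.8, 33.8 and 30.8 CPM in Van (log2 fold change -0.75, SE 0.11, adjusted p = 0.0200 by edgeR). Ifit3, its partner, fell from 58.3 ± 5.03 to 38.1 ± 3.61 CPM (-0.62, SE 0.09, adjusted p = 0.0223). Ifih1, the RNA sensor MDA5, and Oasl2, of the oligoadenylate synthetase family, fell by 0.37 and 0.36 on the log2 scale (adjusted p = 0.0300 and 0.0416). In Ifit2, Ifit3, Ifih1 and Oasl2, unlike in most GBPs, Con replicate 1 was not the highest mouse, and without it the median of the list was -0.23, with Ifih1 and Ifit3 still passing. The groups did not overlap, with Van lower, for 17 of the 28, against 11% of all genes tested.

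Related GTPases were counted in 2 lists. Among 13 immunity-related GTPases, which act with GBPs on pathogen vacuoles, 0 passed the threshold by edgeR, 5 had an unadjusted p under 0.05, all with lower means in Van (8.14% of all genes), and 12 had a negative fold change, with a median of -0.28. Without Con replicate 1, 1 of the 13 had an unadjusted p under 0.05, 10 were negative and the median was -0.11, and the unadjusted count was 3 without Van replicate 1 and 1 without Van replicate 2. The smallest p was that of 9930111J21Rik2, at 228 ± 16.7 CPM for Con against 195 ± 10.1 CPM for Van (-0.23 on the log2 scale, adjusted p = 0.151). Among 10 atlastin, Mx and very large inducible GTPases, 2 passed and both were lower in Van, against 0.917% of all genes. Mx1, whose C57BL/6 allele is known to give no working protein, fell from 94.7 ± 5.37 to 71.2 ± 2.91 CPM (-0.41, SE 0.07, adjusted p = 0.0259 by edgeR). Gm1966, a very large inducible GTPase from a group of closely similar copies whose reads may be divided among them, fell from 497 ± 72.2 to 322 ± 25.5 CPM (-0.63, SE 0.10, adjusted p = 0.0295).

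Partners of the GBPs in the cell were counted in a further 3 lists. Among 12 inflammasome genes, Aim2, the sensor of cytosolic DNA that GBPs help to reach bacterial DNA, fell from 117 ± 4.73 to 86.5 ± 5.29 CPM (log2 fold change -0.44, SE 0.07, adjusted p = 0.0223 by edgeR). It was the 1 of 12 that passed, against 0.917% of all genes passing in the lower direction. An unadjusted p under 0.05 was obtained for 3 of the 12, all with lower means in Van, against 8.14% of all genes in that direction. Without Con replicate 1 this held for 2 of the 12. The other 11 did not pass, and the median of the list was -0.03. Among 12 genes of ATG8 conjugation, the autophagy machinery that directs GBPs to vacuoles, 0 passed, 3 had an unadjusted p under 0.05, all with higher means in Van (8.37% of all genes), and the median was 0.07. The smallest p belonged to Map1lc3a (0.33, adjusted p = 0.0777). Among 8 genes for the prenylation that anchors Gbp2 and Gbp5 in membranes, 0 passed and 2 had an unadjusted p under 0.05, both with higher means in Van (1 without Van replicate 2 and 1 without Van replicate 3), with a median of 0.09 and the smallest p for Rce1 (0.42, adjusted p = 0.0626). The genes of the pathway lists that passed the threshold were thus Fcgr1, Ifit2, Ifit3, Ifih1, Oasl2, Mx1, Gm1966 and Aim2, all lower in Van. None of these 8 genes passed without Con replicate 3, without Van replicate 2 or without Van replicate 3 (adjusted p = 0.0596 to 0.175), although no direction changed when any 1 library was left out. The autophagy and prenylation lists had no gene lower in Van at an unadjusted p under 0.05.

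**Figure D4:**
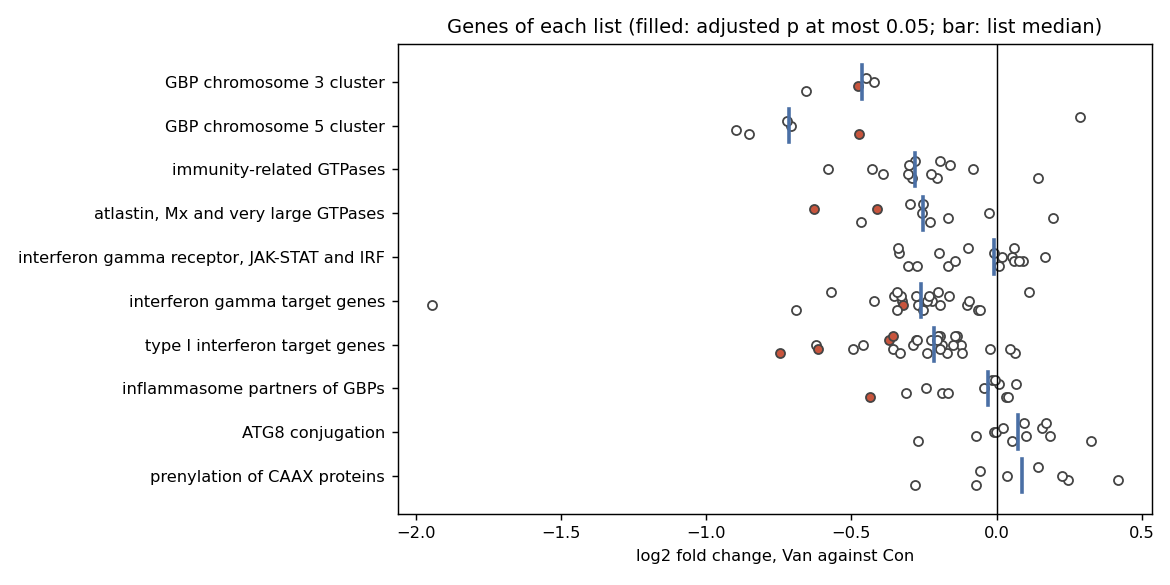
Log2 fold change of Van against Con (horizontal axis) for each gene tested of the 2 GBP clusters and the 8 pathway lists, with filled points for adjusted p at most 0.05 and a bar at the list median. The GBP medians of -0.46 and -0.72 lay below those of the interferon target lists at -0.26 and -0.22, while without Con replicate 1 the 4 medians were -0.27, -0.38, -0.14 and -0.23; the point farthest to the left is Ido1, with 0.360 CPM in Con and an adjusted p of 0.450.

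The summed levels of 3 marker lists of other cells did not overlap between the groups. The marker counts that follow stand against 2% of all genes passing the threshold and 16.5% at an unadjusted p under 0.05. Erythroid markers were higher in Van, at 281 to 621 CPM in sum against 81.0 to 168 CPM in Con, with 5 of 7 passing the threshold (Hbb-bs, Hbb-bt, Hba-a1, Hba-a2 and Alas2). The sum of NK cell markers was 14.9 to 22.3 CPM in Van and 26.4 to 39.6 CPM in Con, and nearly all of it was Klrk1, which was lower in Van (31.4 ± 6.75 against 16.7 ± 3.55 CPM) and is the 1 of 5 tested that passed. The other 4 tested did not pass, with estimates of 0.43 for Klrb1c, 0.53 for Gzmb, -0.85 for Eomes and -1.08 for Gzma on the log2 scale, all with group means under 1 CPM. B cell markers summed to 35.2 to 37.5 CPM in Van and 42.7 to 45.7 CPM in Con, with 0 of 6 passing and 1 of 6 at an unadjusted p under 0.05. The sums of T cell markers overlapped, at 32.6 to 44.5 CPM in Van and 41.9 to 56.2 CPM in Con, with 0 of 8 passing and 1 of 8 at an unadjusted p under 0.05. Those of red pulp macrophage markers overlapped as well, at 4130 to 5265 CPM and 3527 to 4138 CPM, with higher means in Van for 9 of 9 genes, 0 of 9 passing and 5 of 9 at an unadjusted p under 0.05. Of 8 classical monocyte markers, 1 passed in each direction. Ccr2 was lower in Van (731 ± 44.8 against 411 ± 83.7 CPM) and Vcan higher (47.2 ± 13.1 against 137 ± 43.2 CPM). The list had 4 negative and 4 positive estimates, with 2 lower and 1 higher at an unadjusted p under 0.05. Of 7 nonclassical monocyte markers 0 passed, with 3 negative and 4 positive estimates. At an unadjusted p under 0.05, 1 of these 7 was lower and 2 were higher. Among dendritic cell markers Clec9a was lower. The dendritic list had 6 of 7 negative estimates and 5 of 7 at an unadjusted p under 0.05, 4 of them with lower means in Van, and its sums overlapped at 369 to 425 CPM in Van and 402 to 449.6 CPM in Con. All 9 of these marker calls were lost without Con replicate 3 and also without Van replicate 2 (adjusted p = 0.0721 to 0.179). Neutrophil, plasma cell, platelet and eosinophil sums overlapped between the groups, with 0 genes passing. Estimates were negative for 8 of 8 neutrophil, 5 of 5 plasma cell, 5 of 6 platelet and 2 of 2 eosinophil markers tested. At an unadjusted p under 0.05, 1, 2, 2 and 0 of these, respectively, were lower in Van. The part of these markers in the GBP results was not tested.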

How the data were processed

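The data are polyA RNA libraries of monocytes from the spleen, 3 of the Con and 3 of the Van group. The authors prepared stranded polyA libraries, aligned reads to GRCm38 with HISAT2 2.2.1 and SAMtools 1.9, made the deposited FPKM values with StringTie 2.1.3 and Ballgown, and converted them to the deposited estimated counts (expected counts) with tximport, which are not scaled to library size. The annotation release, the treatment of reads with several matches and the use of strand in counting are not given in the sources used here. Of the identifiers, 98% were found in GENCODE M21, and 214 symbols stood on more than 1 identifier. Estimated counts became nearly whole when multiplied by 75 (52.3% to 55% of non-zero counts within 0.05, against 9.56% to 9.98% for 74), so fragments of 200 bases were taken as counts times 0.375. Total depth was 16.27 to 23.19M fragments. The columns of both tables were matched to libraries by name.

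Counts were rounded and tested in R 4.3.3 with edgeR 4.0.16 (TMM, expression filter at a minimum count of 10, quasi-likelihood test, group as the only term), with Benjamini-Hochberg adjustment over all 16138 identifiers and a threshold of 0.05. The CPM values of each GBP were also tested with an exact two-sided permutation test. Between any pair of libraries within a group, the chi-square per gene was 7.68 to 16, above counting error, so that none was a copy of another.

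The members and gene lists were chosen with earlier results of these data known. Every GBP was named, with the called genes of each list or else its smallest p, Irf1, Ifngr1, Ifngr2, Ciita and Gbp2b, called marker genes, and the 5 genes most like the GBPs. Ido1 was named after its value was seen. A gene of the naming rule is not reported here. Alternatives were DESeq2 1.42.0, RLE factors, library size alone, other filters, the replicate block, limma 3.58.1 on FPKM after quantile normalization with a pseudocount of 1 or 0.1 on the log2 scale, fragments, a single identifier per symbol, and each library left out. Leaving libraries out of the pathway lists was added after the data were seen. Scripts were tested on simulated data. Promoters from RefSeq were found for 4 of the 10 genes. The VanLip group was not analysed here.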

Additional observations from a re-analysis of the deposited data

How the results depend on the processing

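The number of GBPs passing the threshold, 2 of 10 among 322 genes with edgeR, was not the same for each test. The Wald test of DESeq2 called 4 GBPs (Gbp3, Gbp9, Gbp6 with an adjusted p of 0.0217 and Gbp7 with 0.0235) among 962 genes, 7.36% of those it tested. With the replicate block, 1 GBP (Gbp9, adjusted p = 0.0391, while Gbp3 had 0.0505) was called among 110 genes, 60% of them higher in Van against 54% without it. Limma on log2(FPKM + 1), on log2(FPKM + 0.1) and on log2(FPKM + 1) with no filter called 0 GBPs each, among 21, 4 and 24 genes, of which 85.7%, 75% and 83.3% were higher in Van, with 2519, 2309 and 2989 genes at an unadjusted p under 0.05. When each library was left out, the number of GBPs called was between 0 and 1 and that of all genes between 21 and 136. Without Con replicate 3 and without Van replicate 2, the genes called (22 and 21) were 90.9% and 85.7% higher in Van. The causes were not tested, although fewer samples enter a fit that leaves 1 out. RLE factors, library size alone, either filter on counts, fragments and a single identifier per symbol called Gbp3 and Gbp9 in each case.

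No GBP changed direction under any alternative that gave it a value, and the cluster medians stayed between -0.61 and -0.27 on chromosome 3 and between -0.94 and -0.38 on chromosome 5. Over the 17 alternatives the adjusted p of Gbp3 was between 1.4e-06 and 0.124 and that of Gbp9 between 1.1e-05 and 0.172. Under the filter of 10 counts in each library Gbp11 had no value, and DESeq2 gave it no adjusted p. Over all genes tested, same-numbered Con and Van mice had correlations of deviations from group means of 0.025, -0.0019 and -0.073. These values do not decide whether the numbers pair the mice for the GBPs. For Gbp2 the deviations of replicates 1, 2 and 3 were 0.64, -0.59 and -0.043 in Con and 0.37, -0.31 and -0.059 in Van. For Gbp7 they were 0.33, -0.29 and -0.041 in Con and -0.070, 0.038 and 0.033 in Van. With the replicate block, edgeR gave adjusted p-values of 0.0735 for Gbp2, 0.0765 for Gbp6 and 0.22 for Gbp7.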
